A study of Arabidopsis thaliana with 6 samples.

Results

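The genes described here are 10 Arabidopsis thaliana genes of salicylate and pipecolate immune signalling, taken by gene identifier from the 32833 identifiers of the count tables: EDS1, PAD4, SAG101, CBP60G, SARD1, ICS1, PBS3, ALD1, SARD4 and FMO1. They are grouped by what is known of their function, and the group was chosen with earlier results of these data known. RNA came from the uppermost 2 cm of the primary root of 18-day-old plants, grown without treatment on plates at 22 °C in constant light. The groups were the wild type Col (WT) and a line labelled myb68 myb84, named for a pair of R2R3 MYB transcription factor genes that the study relates to suberin deposition, with 3 libraries each. Each replicate was a pool of at least 40 plants. The sources used here do not describe its alleles, and the design text writes MYB86 at a single point where the labels have myb84.

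Salicylate is the defence hormone of biotrophic immunity in this plant. EDS1 pairs with PAD4 or SAG101 and passes signals from intracellular immune receptors to helper receptors. The calmodulin-binding protein CBP60g and its relative SARD1 are transcription factors that switch on ICS1 and PBS3, which make salicylate from chorismate, and also ALD1, SARD4 and FMO1, which turn lysine into pipecolate and its N-hydroxy form, the mobile signal of systemic acquired resistance. These genes are known mostly from infected leaves, where several of them are strongly induced, and the labels give no treatment for the roots sampled here.

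Levels are given as CPM, counts per 1000000 library counts after TMM scaling, which evens out library composition. Total counts ran from 19446419 in WT 3 to 55907128 in myb68 myb84 3. Genotypes were compared with the quasi-likelihood test of edgeR across all 20941 genes that passed the low-count filter, and a gene was called changed at an adjusted p under 0.05. By this rule 8.3% of the tested genes changed, 4.66% as raised and 3.65% as lowered in the mutant. MYB84 transcripts were lower in the mutant, at 9.91 ± 2.69 CPM in WT and 6.0 ± 1.13 CPM in myb68 myb84 (SD, n = 3 each, edgeR adjusted p = 0.0442), a call lost in 4 of the 6 fits that each drop a library, those lacking WT 1, WT 3 or either of the mutant libraries 1 and 2 (adjusted p from 0.0855 to 0.149), and in limma-voom (0.0552) and thinned libraries (0.0748). MYB68 transcripts were at 53.7 ± 7.42 and 67.7 ± 7.03 CPM, higher by mean in the line labelled as its mutant, and did not pass in edgeR (log2 0.34, adjusted p = 0.0613). MYB68 passed as raised in DESeq2 (0.0319), in limma-voom (0.0452), with no low-count filter (0.0407), with the replicate block (0.00999), without WT 3 (0.00666) and without myb68 myb84 1 (0.0471), and the other 4 fits that each drop a library gave 0.152 to 0.236. With the allele not described, these levels do not check the MYB68 portion of the label. Markers of root tissue were present in every library, with summed levels of 13006 to 15135 CPM in WT and 11724 to 14025 CPM in the mutant over 10 genes. Of these 10, 2 fell and 0 rose: CYP86A1, a suberin fatty acid hydroxylase (log2 -0.55, adjusted p = 0.00108), and GPAT5, a suberin acyltransferase (log2 -0.50, adjusted p = 0.0104). With 1 library left out, GPAT5 lost its call in 2 of the 6 fits (edgeR adjusted p up to 0.0518), and CYP86A1 kept its call. The median log2 fold change of the 10 was 0.03, with 6 genes above 0 and 4 below. Transcripts of 8 genes of green shoot tissue were also present in every library, with none at 0, and their sum was 1592 to 2651 CPM in WT and 3096 to 3501 CPM in myb68 myb84. Of these 8, 3 rose (LHCB2.1, RCA and RBCS1A) and 0 fell in edgeR. Over the 6 fits that each drop a library, LHCB2.1 kept its call. RBCS1A lost it in 3 of them (adjusted p up to 0.0886) and RCA in 2 (up to 0.0736). The log2 fold changes of the 8 genes ran from -2.45 to 1.17, with 6 genes above 0 and 2 below. RBCS2B was called lowered in DESeq2 (log2 -2.42, adjusted p = 0.0179) and in edgeR without WT 3 (log2 -2.88, adjusted p = 7.4e-05). The part of either marker list in any difference below was not tested. In whole root segments, fewer cells of a type and less RNA per cell cannot be told apart.

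All 10 genes were detected in all 6 libraries and all 10 passed the filter. FMO1 fell in myb68 myb84, and the other 9 genes did not pass the test. Thus 1 of 10 was lowered, beside 3.65% of all tested genes, and 0 of 10 raised, beside 4.66%, counts too small to set the 10 genes apart from the background. At an unadjusted p under 0.05 there were 1 higher (PAD4) and 2 lower (FMO1 and ALD1), against 22% of all tested genes in either direction. DESeq2 called FMO1 and ALD1 lowered, limma-voom called FMO1 alone, and neither tool called any of the 10 raised. The median log2 fold change, myb68 myb84 over WT, was -0.13 over the 10 genes and -0.0026 over all tested genes. Genotypes were fully separated in 3 of the 10 genes, beside 27.2% of all tested genes: the mutant lay below WT for FMO1 and ALD1, as in 13.1% of all tested genes, and above WT for SARD1, as in 14.1%.

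**Figure D1:**
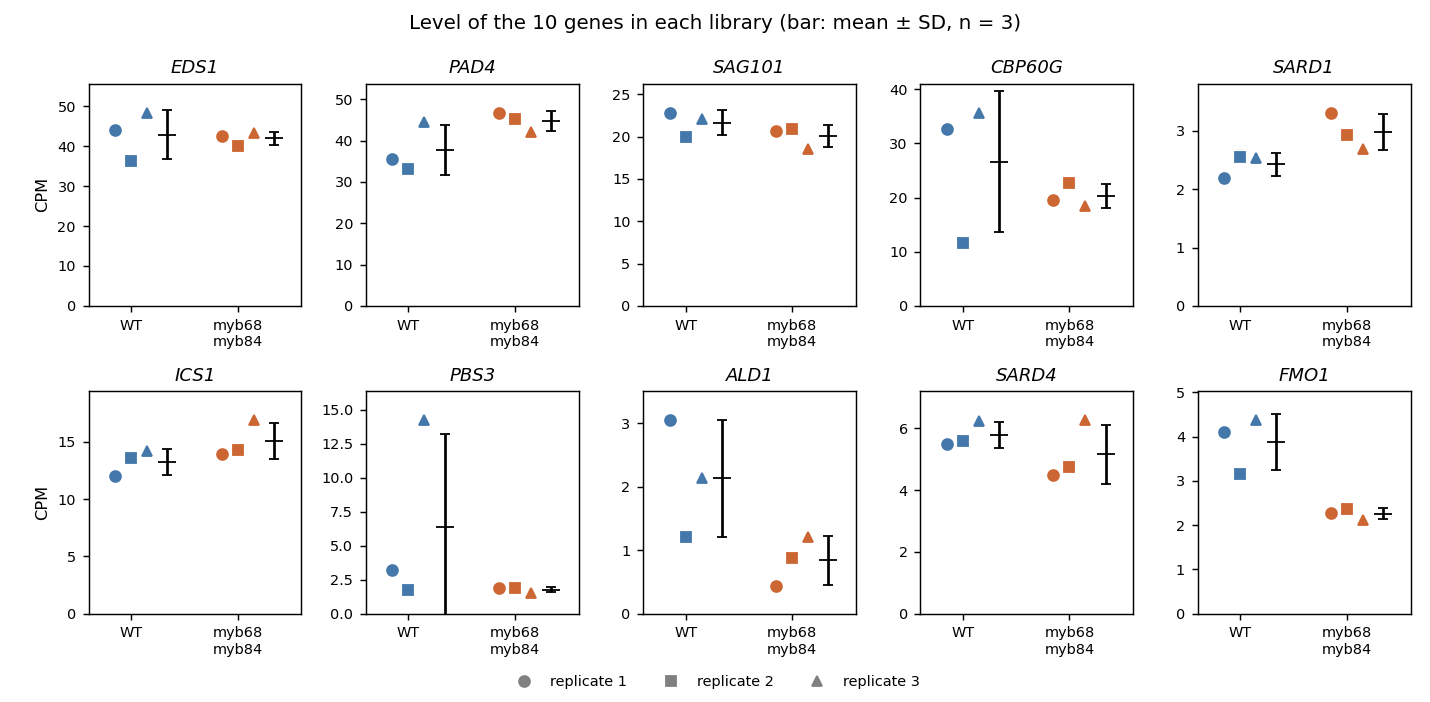
Level of each gene in CPM (vertical axes from 0, 1 panel per gene) in 3 WT and 3 myb68 myb84 libraries. Symbols give the replicate number, and black bars the mean ± SD, the lower bar of PBS3 in WT being limited by the axis at 0. WT 3 stands at 14.2 CPM for PBS3 and WT 2 at 11.7 CPM for CBP60G, both away from the rest of their group, while FMO1 is at 2.12 to 2.37 CPM in the mutant and 3.16 to 4.37 CPM in WT.

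The last enzyme of the pipecolate branch, FMO1 (AT1G19250, chromosome 1, 6650476 to 6653195 in TAIR10.1, minus strand), is the flavin monooxygenase that hydroxylates pipecolate at its nitrogen. Its level was 4.11, 3.16 and 4.37 CPM in WT 1, 2 and 3, from 213, 83 and 86 counts. In myb68 myb84 1, 2 and 3 it was 2.28, 2.37 and 2.12 CPM, from 93, 76 and 119 counts. Each mutant library was thus below each WT library, and the mutant libraries lay closer together than those of WT. FMO1 fell by 0.78 on the log2 scale (SE 0.20, edgeR adjusted p = 0.0326, n = 3 each). The direction was kept in every fit tried, with fold changes of -0.91 to -0.70 when 1 library was left out. The call was lost in 5 of the 6 fits without 1 library, all but that without WT 2, with adjusted p from 0.0773 to 0.125, and in libraries thinned to equal depth (adjusted p = 0.0703).

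ALD1 (AT2G13810, chromosome 2, 5768417 to 5772266, plus strand), the aminotransferase that opens the branch by acting on lysine, had the lowest total count of the 10 genes over the 6 libraries. It stood at 3.05, 1.22 and 2.13 CPM in WT 1, 2 and 3 and at 0.442, 0.873 and 1.21 CPM in myb68 myb84 1, 2 and 3, from 158, 32, 42, 18, 28 and 68 counts. The groups touched without overlapping, since WT 2 and myb68 myb84 3 were nearly equal. The log2 fold change was -1.34 (SE 0.41) and did not pass in edgeR (adjusted p = 0.0625). It passed in DESeq2 (adjusted p = 0.0183), with no low-count filter (0.0424) and without WT 2 (0.0332), and over all alternatives the adjusted p ran up to 0.300. SARD4 (AT5G52810, chromosome 5, 21399331 to 21400686, plus strand), the reductase that finishes pipecolate, was steadier, at 5.48, 5.59 and 6.25 CPM in WT and 4.49, 4.74 and 6.25 CPM in the mutant, with overlapping groups and a log2 fold change of -0.15 (SE 0.17, edgeR adjusted p = 0.674). SARD4 overlaps the annotated neighbour AT5G52800, whose reads cannot be told apart from it without strand. Of the 3 enzymes, FMO1 alone passed in edgeR, and whether the enzymes differ from each other in their change was not tested.

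The windows upstream of FMO1 and ALD1 are shown with that of ICS1, the salicylate gene, because these are the 3 of the 10 whose 250 bases before the annotated start hold the letters GAAATTT on either strand. These letters are a binding motif known for SARD1 and CBP60g. The windows are chr1:6653196-6653445 (minus strand), chr2:5768167-5768416 (plus strand) and chr1:28070045-28070294 (plus strand) of TAIR10.1, written from 5′ to 3′ in the direction of the gene, with capitals for each match to GAAATTT or its reverse complement AAATTTC.
FMO1: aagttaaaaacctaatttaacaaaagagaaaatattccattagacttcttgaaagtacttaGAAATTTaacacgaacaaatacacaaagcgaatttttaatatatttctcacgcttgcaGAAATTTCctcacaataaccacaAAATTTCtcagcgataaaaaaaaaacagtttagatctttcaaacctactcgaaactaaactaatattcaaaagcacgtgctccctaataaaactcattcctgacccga
ALD1: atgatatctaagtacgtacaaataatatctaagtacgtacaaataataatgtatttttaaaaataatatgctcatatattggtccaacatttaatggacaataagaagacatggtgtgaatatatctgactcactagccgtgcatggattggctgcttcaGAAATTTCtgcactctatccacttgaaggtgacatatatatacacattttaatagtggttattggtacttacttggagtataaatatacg
ICS1: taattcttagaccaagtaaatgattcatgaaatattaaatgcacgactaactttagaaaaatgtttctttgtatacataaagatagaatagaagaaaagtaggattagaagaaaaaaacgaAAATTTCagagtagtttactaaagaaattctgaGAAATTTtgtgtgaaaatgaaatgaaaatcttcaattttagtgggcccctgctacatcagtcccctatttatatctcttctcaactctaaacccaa
FMO1 held 4 matches, of which a pair overlap on opposite strands, ALD1 held 2 that overlap in the same way, and ICS1 held 2 apart from each other. The motif was in 12.5% of the windows of this length before 27443 protein-coding genes and in 3 of the 10 here. The core of the W-box bound by WRKY factors, TTGAC on either strand, was in 4 of the 10 windows and 44.9% of all, and that of TGA factors, TGACG, which can overlap it, was in 1 of the 10 (SARD1) and 18.6% of all. Of the genes with GAAATTT, FMO1 fell, ALD1 did not pass at -1.34 and ICS1 did not pass at 0.19. A match is a run of letters and was not tested as a binding site.

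The salicylate enzymes did not pass. ICS1 (AT1G74710, chromosome 1, 28070295 to 28074177), isochorismate synthase, which commits chorismate to salicylate, was at 11.98, 13.5 and 14.2 CPM in WT 1, 2 and 3 and at 13.96, 14.3 and 16.9 CPM in myb68 myb84 1, 2 and 3. The groups overlapped, with a log2 fold change of 0.19 (SE 0.11, edgeR adjusted p = 0.360). PBS3 (AT5G13320, chromosome 5, 4267456 to 4271064) is the GH3 family enzyme that couples isochorismate to glutamate. Its level was 3.20, 1.71 and 14.2 CPM in WT 1, 2 and 3, from 166, 45 and 280 counts, and 1.91, 1.87 and 1.53 CPM in myb68 myb84 1, 2 and 3, from 78, 60 and 86 counts. WT 3 alone was high, and WT 2 lay within the range of the mutant. The fitted log2 fold change of -1.80 (SE 0.86) did not pass (edgeR adjusted p = 0.316) and was -0.51 without WT 3 (adjusted p = 0.366).

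CBP60G (AT5G26920, chromosome 5, 9475679 to 9478777) was at 32.6, 11.7 and 35.6 CPM in WT 1, 2 and 3, and at 19.5, 22.7 and 18.5 CPM in myb68 myb84 1, 2 and 3. The mutant libraries lay between WT 2 and the higher pair of WT libraries. The log2 fold change was -0.40 (SE 0.43, edgeR adjusted p = 0.672). Without WT 2 it was -0.75 and passed (adjusted p = 0.00231), and without WT 3 it was -0.16 (adjusted p = 0.903). SARD1 (AT1G73805, chromosome 1, 27744790 to 27749248), which acts in parallel with CBP60g, was at 2.2, 2.55 and 2.54 CPM in WT and 3.31, 2.93 and 2.69 CPM in the mutant. Each mutant library was above each WT library by a small margin, from 50 to 151 counts per library. The log2 fold change of 0.30 (SE 0.21) did not pass (edgeR adjusted p = 0.439). SARD1 overlaps the annotated neighbour AT1G73790.

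The EDS1 complex was the most abundant group of the 10 and differed little between genotypes. EDS1 (AT3G48090, chromosome 3, 17755329 to 17758147), the lipase-like hub, was at 43.9, 36.2 and 48.3 CPM in WT 1, 2 and 3 and at 42.6, 40.1 and 43.2 CPM in the mutant, a log2 fold change of -0.03 (SE 0.10, edgeR adjusted p = 0.902). PAD4 (AT3G52430, chromosome 3, 19431095 to 19434450), its partner in basal and receptor-triggered defence, was at 35.7, 33.1 and 44.4 CPM in WT and 46.8, 45.2 and 42.0 CPM in the mutant. WT 3 lay among the mutant libraries and the other WT libraries below them. The log2 fold change of 0.25 (SE 0.10) did not pass (edgeR adjusted p = 0.164), but without WT 3 it was 0.38 and passed (adjusted p = 0.0144). SAG101 (AT5G14930, chromosome 5, 4828499 to 4830982), the partner linked to cell death in receptor-triggered defence, was at 22.8, 20.0 and 22.0 CPM in WT and 20.7, 20.9 and 18.6 CPM in the mutant, with overlapping groups (log2 -0.11, SE 0.09, edgeR adjusted p = 0.548).

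The neighbour AT3G48080, which carries the same product name as EDS1 in the annotation (alpha/beta-Hydrolases superfamily protein), was expressed as well, at 27.8 ± 1.55 CPM in WT and 28.6 ± 2.17 CPM in the mutant (SD, n = 3 each, log2 0.04, edgeR adjusted p = 0.855). Of the 2355 stretches of 50 bases in EDS1 exons, 23 occurred elsewhere in the genome, all of them in AT3G48080, a share of 0.977%. The shares were 0.278% for PAD4 and 0.440% for ICS1, and 0 stretches of the other 7 genes were repeated. With the counts of EDS1 and AT3G48080 summed, the log2 fold change was -0.0027 (adjusted p = 0.989).

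**Figure D2:**
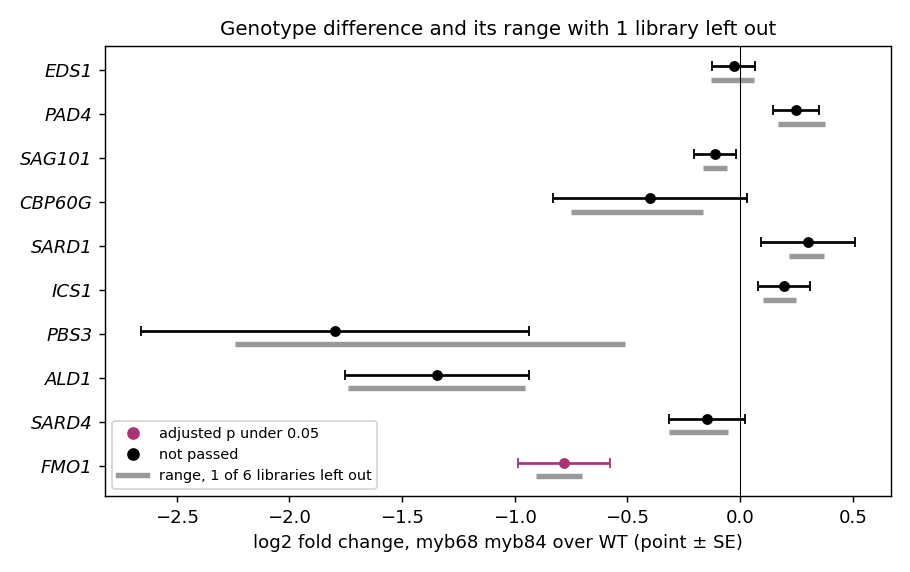
Log2 fold change, myb68 myb84 over WT, of each gene (point ± SE from edgeR on 3 libraries per genotype), with the range over the 6 fits that leave out 1 library in grey. FMO1, at -0.78, is the gene past an adjusted p of 0.05, and the range of PBS3, from -2.24 to -0.51, is the widest of the 10.

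The spread between WT libraries was wide for PBS3, CBP60G and ALD1 and moderate for the other 7 genes. The SD of log2 CPM over the WT libraries (prior count 2) was 1.55 for PBS3 and 0.89 for CBP60G, larger than in 99.5% and 97.9% of tested genes. In the mutant libraries the same genes had 0.17 and 0.16. The ratio of the highest to the lowest WT library was 8.31 for PBS3, 3.04 for CBP60G and 2.51 for ALD1, and 1.14 to 1.38 for the other 7. ALD1 varied in both genotypes, with an SD of 0.65 in WT and 0.69 in the mutant, and the median tested gene had 0.14 and 0.11. WT 2 was the lowest WT library for EDS1, PAD4, SAG101, PBS3, CBP60G, ALD1 and FMO1, and WT 3 the highest for EDS1, PAD4, ICS1, PBS3, CBP60G, SARD4 and FMO1. Summed over the 10 genes, the level was 165, 129 and 194 CPM in WT 1, 2 and 3 and 156, 156 and 153 CPM in myb68 myb84 1, 2 and 3. WT 3 also had the lowest sum of green shoot markers, at 1592 CPM, and WT 2 the highest of the WT libraries, at 2651 CPM. The part of those markers in this spread was not tested.

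**Figure D3:**
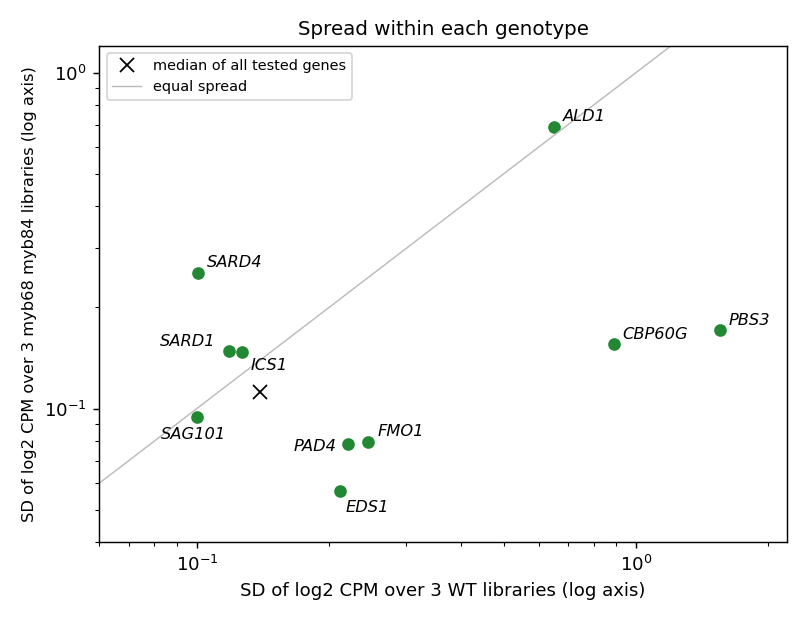
SD of log2 CPM over the 3 WT libraries (horizontal, log axis) against that over the 3 myb68 myb84 libraries (vertical, log axis), 1 point per gene. PBS3 and CBP60G lie far below the line of equal spread, at 1.55 and 0.89 in WT against 0.17 and 0.16 in the mutant, and ALD1 is high in both.

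Per length of annotated exon, the order of levels in WT was EDS1 (16.8 ± 2.40 CPM per kb, SD, n = 3), PAD4 (16.7 ± 2.64), CBP60G (11.5 ± 5.64), SAG101 (9.81 ± 0.672), ICS1 (6.08 ± 0.526), SARD4 (4.26 ± 0.305), PBS3 (2.44 ± 2.61), FMO1 (2.03 ± 0.333), ALD1 (1.36 ± 0.583) and SARD1 (1.01 ± 0.0828). The EDS1 complex thus stood above the enzymes, and the level per kb was higher than that of 65.6% of tested genes for EDS1 and of 10.3% for SARD1. Neighbours in the order overlapped over their libraries except SAG101 with ICS1 and ICS1 with SARD4. In myb68 myb84 the order was PAD4 (19.8 ± 1.07 CPM per kb), EDS1 (16.4 ± 0.643), SAG101 (9.11 ± 0.586), CBP60G (8.77 ± 0.968), ICS1 (6.90 ± 0.725), SARD4 (3.81 ± 0.704), SARD1 (1.24 ± 0.131), FMO1 (1.18 ± 0.0661), PBS3 (0.677 ± 0.0798) and ALD1 (0.536 ± 0.246). There, the overlapping neighbours were SAG101 with CBP60G, SARD1 with FMO1 and PBS3 with ALD1. SARD1 was the last of the 10 in WT and the seventh in the mutant, above FMO1, PBS3 and ALD1 by mean.

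Around the 10 genes, 111 genes of 10 lists drawn from textbook knowledge were examined. Among helper receptors and other partners of EDS1, 1 of 8 tested genes rose and 0 fell, with a list median of 0.15. ADR1 (AT1G33560), a helper receptor that works with EDS1 and PAD4, was at 21.5, 23.8 and 26.1 CPM in WT 1, 2 and 3 and at 46.1, 36.2 and 33.2 CPM in myb68 myb84 1, 2 and 3. The groups did not overlap, and ADR1 rose by 0.70 (SE 0.12, edgeR adjusted p = 0.00348), with adjusted p up to 0.0281 when 1 library was left out.

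Other genes of salicylate synthesis and turnover had 1 raised and 1 lowered among 14 tested, with a median of -0.12. In edgeR, 1 was higher and 4 were lower at an unadjusted p under 0.05. UGT71C3 (AT1G07260), a glucosyltransferase of methyl salicylate, was at 47.5, 50.7 and 37.5 CPM in WT and 26.2, 23.1 and 20.4 CPM in the mutant and fell by 0.97 (SE 0.12, edgeR adjusted p = 0.000487). MES9 (AT4G37150), an esterase that frees salicylate from methyl salicylate, was at 34.5, 46.2 and 37.3 CPM in WT and 55.8, 66.1 and 66.2 CPM in the mutant and rose by 0.68 (SE 0.11, adjusted p = 0.00248). Both calls were kept in all 6 fits with 1 library left out. UGT71C3 overlaps the annotated neighbour AT1G07250. With the replicate number as a block, 2 genes of this list were lowered in place of 1, the added gene being ICS2 (overlapped by AT1G18871), the other isochorismate synthase, at -0.78 (adjusted p = 0.0195, and 0.239 without the block).

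Receptors and cofactors of salicylate showed no call. Of 14 tested genes of the NPR, NIMIN and TGA families, 0 rose and 0 fell in edgeR, DESeq2 and limma-voom. Their median was 0.07, and without adjustment 1 gene was higher and 0 were lower at p under 0.05. Most abundant by the mean over all 6 libraries were the bZIP factors TGA1, at 330 ± 9.54 CPM in WT and 347 ± 22.3 CPM in the mutant (log2 0.07, edgeR adjusted p = 0.644), and TGA4, at 60.5 ± 6.82 and 60.5 ± 2.08 CPM (adjusted p = 0.988). The cofactor NPR1 was close to TGA4, at 58.1 ± 5.12 and 61.0 ± 3.01 CPM. TGA4 and NPR1 overlap annotated neighbours.

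Among 19 other immune transcription factors, 2 fell and 0 rose, with a median of -0.0076. WRKY18 (AT4G31800), a pathogen-induced WRKY factor, went from 40.0 ± 2.94 to 28.9 ± 1.65 CPM and fell by 0.47 (SE 0.08, edgeR adjusted p = 0.00372), a call kept without any 1 library. WRKY54 (AT2G40750), a relative of WRKY70 that modulates salicylate levels, went from 40.6 ± 3.95 to 31.3 ± 3.89 CPM and fell by 0.37 (adjusted p = 0.0381). That call was lost in 5 of the 6 fits with 1 library left out, all but that without myb68 myb84 2 (adjusted p from 0.0515 to 0.141), and after thinning (0.106). WRKY46, named after its values were seen, was at 3.54 ± 1.48 and 5.91 ± 1.06 CPM and did not pass (log2 0.77, adjusted p = 0.0841). It passed as raised in DESeq2 (0.0314), limma-voom (0.0294) and edgeR with the replicate block (0.0468).

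The classical outputs of salicylate signalling PR1, PR2 and PR5 were at or near the detection floor. With counts taken as independent, the limit set by a count of 0 is 3 counts, or 0.154 CPM in WT 3, the shallowest library. PR1, the most used marker of the response, had 12, 0 and 2 counts in the WT libraries and 2, 2 and 0 counts in those of the mutant. PR2, a glucanase, had 14, 10 and 0 against 2, 4 and 2 counts, and PR5, a thaumatin-like protein, 4, 0 and 0 against 2, 0 and 0. These 3 were among the 7 of 12 response genes that were too low to test. Of the 5 tested, 1 fell and 0 rose, with a median of -0.29. GRXS13 (AT1G03850), a salicylate-inducible glutaredoxin, was at 180, 185 and 176 CPM in WT and 132, 160 and 151 CPM in the mutant and fell by 0.29 (SE 0.08, edgeR adjusted p = 0.0433), but passed in only 1 of the 6 fits with 1 library left out, that without myb68 myb84 2 (adjusted p up to 0.138 in the others).

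Enzymes that supply and break down lysine, the precursor of pipecolate, had 0 calls in either direction among 6 tested in edgeR, DESeq2 and limma-voom, with a median of -0.11. Without adjustment, 0 were higher and 1 lower at p under 0.05. The lysine-degrading enzyme gene AT4G33150 (LKR/SDH) was at 344 ± 27.4 CPM in WT and 322 ± 20.6 CPM in the mutant (edgeR adjusted p = 0.578), and the pyridoxal-dependent decarboxylase gene AT5G11880, with the overlapping neighbour AT5G11870, stood at 53.6 ± 5.75 and 49.2 ± 2.52 CPM (adjusted p = 0.448). Among pattern-response and camalexin genes 1 of 8 tested fell and 0 rose, with a median of -0.27. This was WRKY22 (AT4G01250), a factor downstream of flagellin perception, which was at 18.7, 22.6 and 19.8 CPM in WT and 11.5, 13.3 and 10.12 CPM in the mutant and fell by 0.81 (SE 0.12, edgeR adjusted p = 0.00116, up to 0.00731 without 1 library). Genes that hold salicylate immunity in check had 0 calls among 7 tested in all 3 tools and 0 at an unadjusted p under 0.05 in edgeR, with a median of 0.05. Of these, SRFR1 was at 87.4 ± 5.06 and 96.6 ± 2.18 CPM and CPR1 at 77.4 ± 2.81 and 79.9 ± 2.82 CPM (edgeR adjusted p = 0.240 and 0.745).

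**Figure D4:**
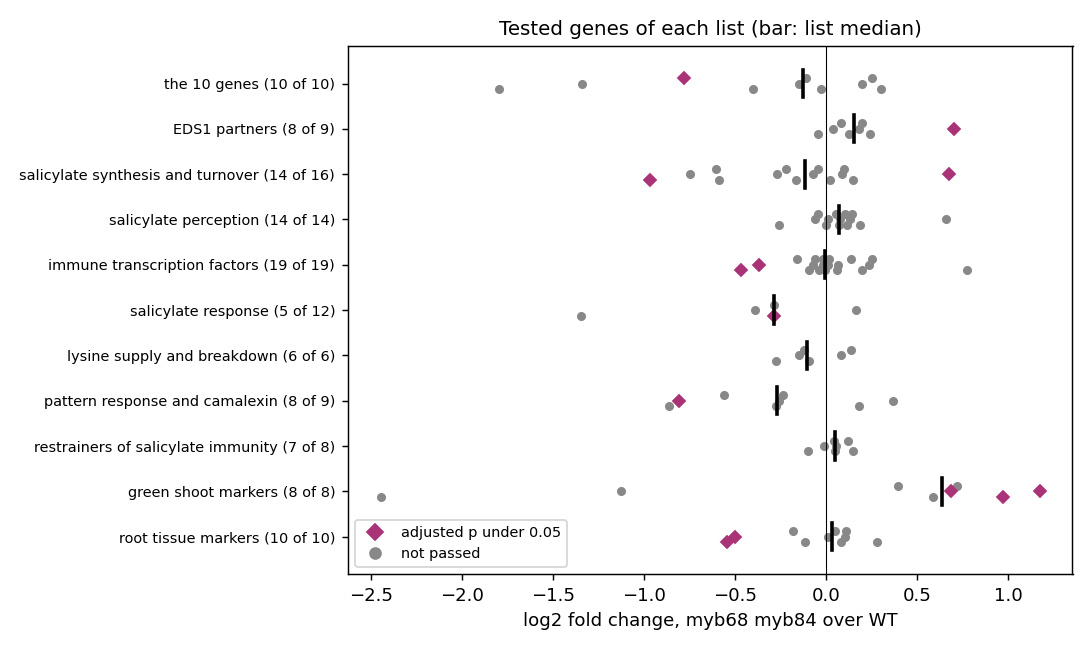
Log2 fold change, myb68 myb84 over WT, of every tested gene of the 10 genes described and of the 10 other lists, with the number tested of the number listed beside each name. Diamonds are genes with an edgeR adjusted p under 0.05, circles those that did not pass, and bars list medians, which lie between -0.29 and 0.15 except in the green shoot markers (0.64).

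The genes whose pattern over the 6 libraries lay nearest to the mean of the 10 were found by the root mean square difference of log2 CPM, each gene centred on its own mean, among 17979 tested genes with a mean of at least 2 CPM. The mean pattern of the 10 was 0.20, -0.22 and 0.49 on the log2 scale for the WT libraries, in replicate order, and -0.22, -0.13 and -0.12 for those of the mutant. Nearest were AT3G01760, an amino acid transporter family gene (difference 0.0498), the laccase gene LAC11 (0.0582), EMB2788 (0.0613), PARG2, a poly(ADP-ribose) glycohydrolase (0.0679), and AT5G64640, of the invertase and pectin methylesterase inhibitor superfamily (0.0686). None of the 5 passed the genotype test in edgeR (adjusted p from 0.124 to 0.562). The mean pattern includes PBS3 and CBP60G, the genes of widest spread in WT, and likeness to it is what chose the 5 genes.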

How the data were processed

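RNA-seq libraries of 2 genotypes, 3 per genotype, were analysed from 1 column of raw counts each, as deposited, with no normalization by the authors. Per the submitters' processing notes, Trim Galore, HISAT, featureCounts and DESeq2 were named and the build was TAIR10. Nothing read here states their versions, the annotation release or the strand setting. Of the counts from 1 to 10, 77.0% to 81.6% per library were even, as when both reads of a pair are counted. If both reads were counted, counts are not independent molecules. Floors of 3 counts cover counting error only and take counts as independent, so they are too low if both reads were counted. Names, positions and sequence came from RefSeq TAIR10.1. Product names stand in for symbols it does not give, and the names SARD4, ICS1 and LKR/SDH are common usage.

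The main test was edgeR 4.0.16 in R 4.3.3 (robust quasi-likelihood F test, TMM, filterByExpr with a minimum count of 10, genotype as the only term, Benjamini-Hochberg adjustment over 20941 genes). The standard error is the fold change over the square root of F. Alternatives were DESeq2 size factors, upper-quartile scaling, no filter, a floor of 1 CPM in 3 libraries, limma-voom (limma 3.58.1), DESeq2 1.42.0, the replicate number as a block, thinning to 19446419 counts, an adjusted p under 0.01, each library left out, and EDS1 summed with AT3G48080. The p-values measure the spread between pools of plants. On simulated counts for these 20941 genes and this comparison, edgeR found 72 of 100 genes altered 1.5-fold and 94 of 100 altered 2-fold. It made 17 false calls among 183, and 0 calls with no gene changed. The altered genes were drawn from those with a mean of at least 2 CPM over the 6 libraries, which ALD1 did not reach. The shares found thus do not cover genes as low as ALD1. They pool genes of many levels, and were not measured at the levels or spreads of SARD1, FMO1, PBS3 or CBP60G.

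The 10 genes and the lists were chosen with earlier results of these data known. The text names all 10 genes, the gene pair of the genotype label, AT3G48080, the called genes of each list (at most 4, by adjusted p), for lists without calls the 2 most abundant genes, and the 5 genes of most similar pattern. Further genes, as those at the floor, were named after their values were seen.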

Additional observations from a re-analysis of the deposited data

How the results depend on the processing

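Over the alternatives for the 10 genes, 128 of 141 fold changes kept their direction and their side of the threshold, 6 lost the call (all FMO1), 5 gained one and 2 changed sign. Both sign changes were EDS1, which ran from -0.13 to 0.063 with 1 library left out. AT3G48080 ran from -0.028 to 0.075 in those fits and TGA4 from -0.089 to 0.047, and TGA4 was 0.0013 with no low-count filter, 0.0045 with the replicate block and 0.0049 in thinned libraries. These genes did not pass in any of those fits.

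Of the 10 genes, the number lowered was 1, with 2 under no low-count filter and in DESeq2, 0 in thinned libraries, 0 at an adjusted p under 0.01, and 0 to 3 with 1 library left out. The 3 without WT 2 were FMO1, ALD1 and CBP60G. The number raised was 0, and 0 to 1 with 1 library left out (PAD4 without WT 3). Over all genes, 975 raised and 764 lowered became 425 and 317 at an adjusted p under 0.01, and 579 to 947 and 435 to 723 with 1 library left out.

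Among the lists, EDS1 partners had 1 to 2 raised with 1 library left out. Other immune transcription factors had 1 raised in DESeq2, limma-voom and the replicate block and 0 to 1 with 1 library left out, and 1 lowered in thinned libraries, 1 at an adjusted p under 0.01 and 1 to 2 with 1 library left out. Response genes had 0 lowered at an adjusted p under 0.01 and 0 to 1 with 1 library left out. Green shoot markers had 5 raised with the replicate block, 0 raised at an adjusted p under 0.01, 1 to 3 raised and 0 to 1 lowered with 1 library left out, and 1 lowered in DESeq2 (RBCS2B). Root tissue markers, with 2 lowered (CYP86A1 and GPAT5), had 1 at an adjusted p under 0.01 and 1 to 2 with 1 library left out. The cause of these shifts was not tested. Where a fit leaves out 1 library, a group of 2 remains.

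The labels share replicate numbers between genotypes, but nothing says what a number marks. Correlations of deviations from the group means between same-numbered libraries were -0.0059, 0.024 and 0.084, so the numbers were not taken as pairs, and only WT 3 and myb68 myb84 3 correlated best with their own number. With the replicate block, 1154 genes rose and 915 fell, and salicylate synthesis and turnover had 2 lowered in place of 1. FMO1 kept its call (adjusted p = 0.0445). Counts per library were low for ALD1 (18 to 158), SARD1 (50 to 151), PBS3 (45 to 280) and FMO1 (76 to 213), and FMO1 lost its call in thinned libraries.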
